A study of Homo sapiens with 3 samples.

Results

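The 10 genes described here code for CXC chemokines, small secreted proteins with a pair of cysteines split by 1 other residue, which draw leukocytes along a gradient by binding G-protein-coupled receptors. The members are CXCL1, CXCL2, CXCL3, CXCL5, CXCL8, CXCL9, CXCL10, CXCL11, CXCL16 and PPBP. They were found as the probe sets whose platform gene symbol was exactly 1 of these names, which gave 16 probe sets for 10 genes out of 41091 probe sets with 1 gene each for 19775 genes in all. The cells were THP-1, a human cell line from a monocytic leukemia. They float and resemble monocytes, and phorbol myristate acetate (PMA), which activates protein kinase C, makes them attach and take on traits of macrophages. RNA of 3 THP-1 cultures was measured, each on 1 array: the undifferentiated culture, the PMA 3 days culture and the PMA 8 days culture. Per the labels' protocols the PMA 3 days culture had 200 nM PMA for 24 h and 3 further days without it, and the PMA 8 days culture had 200 nM PMA for 72 h and 5 further days without it. These times sum to 4 days for the PMA 3 days culture and 8 days for the PMA 8 days culture, so the names do not count time alike. All 3 cultures were grown with 10% serum. Medium with 2% serum was given 16 h before RNA was taken, and the protocol does not say whether the undifferentiated cells had it too. All cells were of this 1 line, so that time in PMA, time since PMA and time in culture cannot be told apart between the PMA cultures. With 1 array per condition no test was possible: every value below is a single measurement, the number of arrays limits its precision, and "higher" or "lower" stands for a difference of at least 2-fold unless values are given alone.

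CXC chemokines fall into classes by receptor. CXCL1, CXCL2, CXCL3, CXCL5, CXCL8 and the processed form of PPBP carry the residues glutamate, leucine and arginine before the first cysteine, bind CXCR2 and attract neutrophils, and CXCL8 also binds CXCR1. Macrophages make CXCL1, CXCL2, CXCL3, CXCL5 and CXCL8 when the transcription factor NF-kB is active. CXCL9, CXCL10 and CXCL11 lack that motif, bind CXCR3 on activated T cells and natural killer cells, and are known as interferon-induced genes. CXCL16 is made as a membrane protein, serves as a scavenger receptor for oxidized lipoprotein and binds CXCR6, and its chemokine domain can be shed.

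Except for CXCL16, which lies on chromosome 17, the genes lie on chromosome 4. In the RefSeq gene table CXCL8, CXCL1, PPBP, CXCL5, CXCL3 and CXCL2 lie among CXCL6, PF4V1 and PF4, between RASSF6 and MTHFD2L, and CXCL9, CXCL10 and CXCL11 stand in a second group with ART3 among them, between SDAD1 and NUP54. The bases before the start sites of 9 members were in the RefSeq promoter table for GRCh38.p14 and were searched over 250 bases. They are shown because the genes with like sequences can be set beside the array values that follow. The sequences run 5′ to 3′ and end 1 base before the annotated start site. In CXCL1, CXCL2, CXCL3, CXCL5 and CXCL11, the longest capital run marks a match to the NF-kB consensus. The first capital run of CXCL8 and of CXCL11 marks an AP-1 match (TGANTCA), and the second of CXCL8 marks GGAATTTCC, the longest run of bases shared by CXCL1, CXCL2, CXCL3, CXCL5 and CXCL8.
CXCL1, chr4:73869273-73869392, plus strand: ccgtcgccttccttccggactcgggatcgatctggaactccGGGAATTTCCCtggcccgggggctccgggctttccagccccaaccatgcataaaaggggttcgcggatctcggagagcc
CXCL2, chr4:74099196-74099315, minus strand: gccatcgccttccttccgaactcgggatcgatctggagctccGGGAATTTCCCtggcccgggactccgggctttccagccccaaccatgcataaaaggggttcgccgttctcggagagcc
CXCL3, chr4:74038690-74038809, minus strand: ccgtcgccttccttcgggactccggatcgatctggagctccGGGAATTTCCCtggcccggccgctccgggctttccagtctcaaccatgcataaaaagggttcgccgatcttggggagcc
CXCL5, chr4:73998678-73998797, minus strand: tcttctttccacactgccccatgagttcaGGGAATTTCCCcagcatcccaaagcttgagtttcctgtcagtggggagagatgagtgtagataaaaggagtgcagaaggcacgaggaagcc
CXCL8, chr4:73740419-73740568, plus strand: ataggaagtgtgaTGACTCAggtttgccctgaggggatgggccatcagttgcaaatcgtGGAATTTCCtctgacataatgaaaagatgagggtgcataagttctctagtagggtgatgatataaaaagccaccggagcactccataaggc
CXCL11, chr4:76036071-76036190, minus strand: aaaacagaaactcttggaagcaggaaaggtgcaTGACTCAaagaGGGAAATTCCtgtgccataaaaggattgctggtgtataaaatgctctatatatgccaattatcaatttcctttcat

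CXCL9 and CXCL10 held the interferon-stimulated response element (ISRE, searched as GAAA, any 2 bases, GAAA), which is the first capital run in both. The other capital runs of CXCL10 mark its NF-kB matches. PPBP had no capital run in its window.
CXCL9, chr4:76007510-76007689, minus strand: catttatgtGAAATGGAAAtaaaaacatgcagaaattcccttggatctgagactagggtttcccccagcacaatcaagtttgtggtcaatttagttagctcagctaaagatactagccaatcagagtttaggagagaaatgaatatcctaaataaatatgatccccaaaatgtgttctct
CXCL10, chr4:76023498-76023747, minus strand: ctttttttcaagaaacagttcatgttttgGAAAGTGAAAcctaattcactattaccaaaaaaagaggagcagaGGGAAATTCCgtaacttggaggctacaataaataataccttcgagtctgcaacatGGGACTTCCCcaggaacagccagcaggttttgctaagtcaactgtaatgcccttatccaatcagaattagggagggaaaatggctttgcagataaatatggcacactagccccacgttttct
PPBP, chr4:73988191-73988290, minus strand: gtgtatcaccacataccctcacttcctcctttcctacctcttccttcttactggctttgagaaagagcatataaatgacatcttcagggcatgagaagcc

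CXCL1, CXCL2 and CXCL3 shared an unbroken run of 23 bases, CTCCGGGAATTTCCCTGGCCCGG, and CXCL5 shared 11 bases of it, GGGAATTTCCC. Over the 250 bases CXCL1 was 81.4% identical to CXCL3 and 70.4% to CXCL2, and CXCL2 was 73.3% identical to CXCL3, whereas CXCL1 and CXCL8 were 42.6% identical. Matches on either strand were counted. The NF-kB consensus matched in 6 of 9 members and in 9.96% of all 35116 promoters of that length. The run GGAATTTCC, picked because it was found in these promoters, stood in 7 of 9 members, CXCL10 and CXCL11 holding it on the other strand, and in 0.413% of all promoters. It overlaps the NF-kB match in every member that has both. The ISRE matched in CXCL9 and CXCL10 and in 3.02% of all promoters, and AP-1 in CXCL8 and CXCL11 and in 6.57%. The palindromic interferon-gamma element (GAS, searched as TTCNNNGAA) matched in CXCL5, where it overlaps the NF-kB match, in CXCL11 and in 6.57% of all promoters. The TATA letters TATAAA stood in 4 members and 10.7% of all, and the C/EBP letters TTGCNNCAA in 0 members and 1.62% of all. Each match describes the letters of a window and no more.

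**Figure D1:**
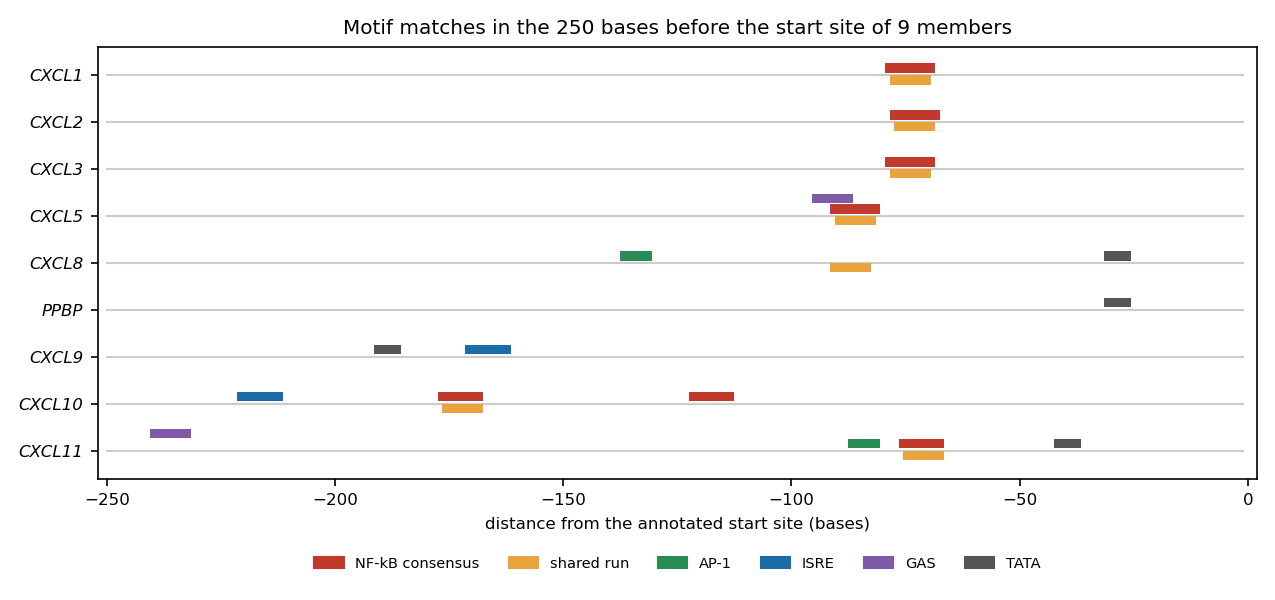
Motif matches in the 250 bases before the annotated start site of 9 members, 1 line per gene; the x axis is the distance from the start site in bases, and coloured blocks are matches drawn to scale, with the shared run below its line and the GAS element raised above the others. The NF-kB blocks of CXCL1, CXCL2, CXCL3, CXCL5 and CXCL11 stand between -91 and -67, and PPBP has only a TATA block.

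Signals are linear intensities. The median over the arrays, 149.8 signal units without controls, was taken as a floor, and lower values were raised to it before ratios were formed, so that a ratio against the floor is a lower bound and is written "at least". A gene with several probe sets was read by its brightest, and it counted as measured in a comparison if 1 or both of the arrays had that probe set above the floor. Each array had a trimmed mean of 1000 and had 48.5% to 51.4% of its probe sets above the floor. Spread within a gene was taken over 5180 genes from probe sets above the floor on every array. Their log2 ratios had an SD of 0.43 and 0.44 where PMA 3 days and PMA 8 days cells were set against undifferentiated cells. Between the PMA arrays it was 0.27, and it covers no difference between cultures. Of the members only CXCL8 had more than 1 such probe set, so the SD does not cover the probe sets of CXCL2 and CXCL11. The macrophage markers CD163 and CD14, a scavenger receptor and an endotoxin co-receptor, were 122-fold and 40.2-fold higher at PMA 3 days than in undifferentiated cells, and of 9 monocyte and macrophage markers 8 were higher at PMA 3 days. At PMA 8 days 7 were higher and 1, the lysozyme gene LYZ, was lower (log2 ratio of -1.43). Among all measured genes 10.4% were higher and 10.7% lower by 2-fold at PMA 3 days, and 9.83% higher and 8.49% lower at PMA 8 days. On each array 2 of 5 lymphoid markers were above the floor. Of the 2 measured at PMA 3 days over undifferentiated cells, 0 were higher and 1 (NKG7) was lower. Of 6 endothelial, epithelial and fibroblast markers 4, 2 and 3 were above the floor on the undifferentiated, PMA 3 days and PMA 8 days arrays. The brightest, PECAM1, had 21258, 20720 and 18665 units in that order. Of those measured 0 passed 2-fold in any comparison. Between the PMA arrays 1.37% of all measured genes were higher and 0.958% lower by 2-fold at PMA 8 days. RNA was taken from whole cultures, so fewer cells that express a gene and less of its RNA per cell cannot be told apart.

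Of the 10 chemokine genes 8 were measured, and all 8 were higher at PMA 3 days than in undifferentiated cells, each by at least 4-fold. Among all 13306 measured genes 10.4% were higher by 2-fold and 3.84% by 4-fold. The members' log2 ratios had a median of 3.29 and ran between 2.50 and 4.44, beside a median of -0.12 over all measured genes. At PMA 8 days the same 8 genes were higher than in undifferentiated cells, 6 of them by at least 4-fold, where 9.83% of 13555 genes were higher by 2-fold and 3.33% by 4-fold. Their median log2 ratio was 2.17, beside -0.07 over all measured genes. Between the PMA arrays, which both also serve in the comparisons above, 7 of 8 members were lower in signal at PMA 8 days than at PMA 3 days, and 4 of them by at least 2-fold, where 0.958% of 13051 genes were lower by 2-fold. No member was higher by 2-fold, and 1.37% of all measured genes were. The median log2 ratio of the members was -0.99, beside 0.04 over all. In this comparison the median of the 24 poly-A labelling controls was -0.29 on the log2 scale. With the arrays scaled to these controls the members' median was -0.70, CXCL1 was no longer lower by 2-fold and PPBP was higher by 2-fold, so that 1 member was higher and 3 were lower, and the median of all genes was 0.31. The part of labelling in the result was not tested.

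**Figure D2:**
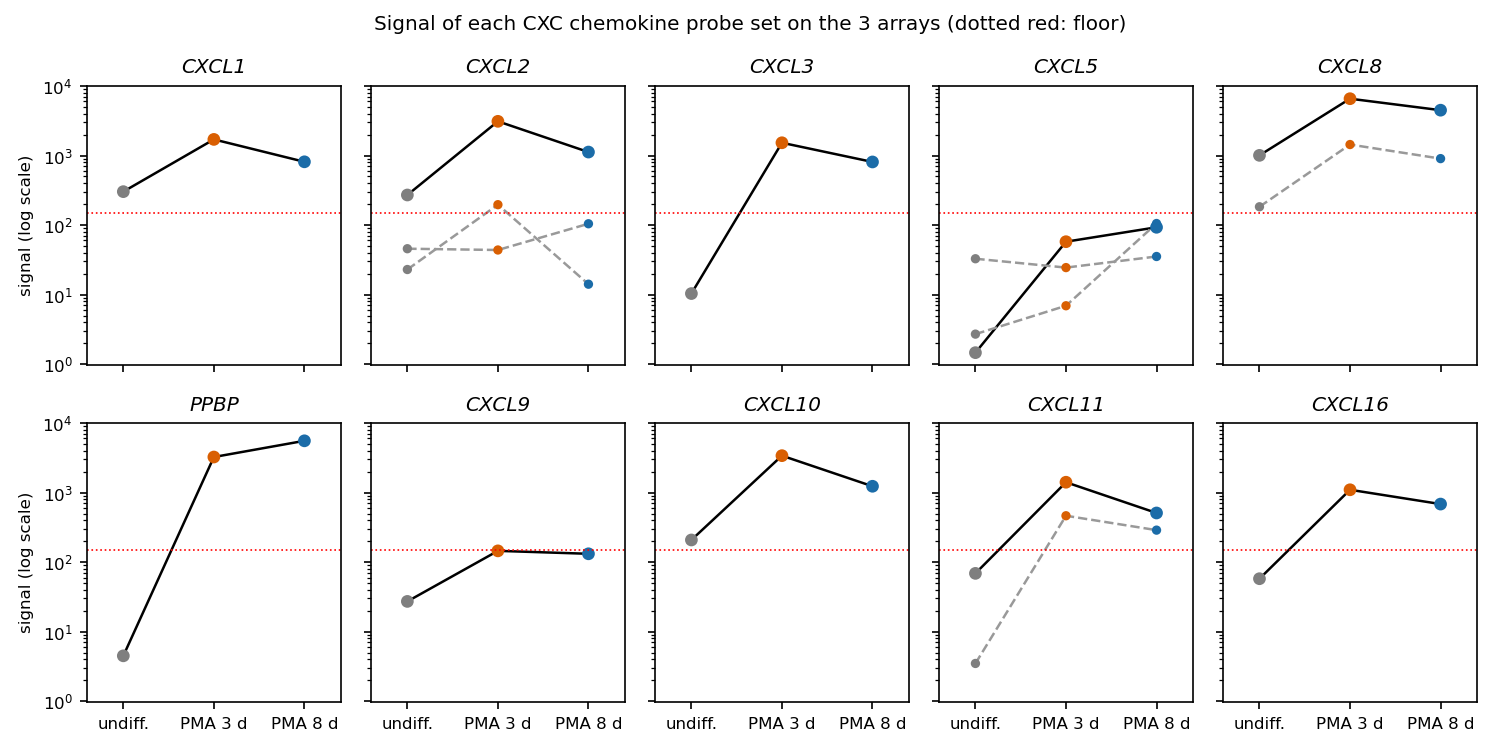
Signal of each of the 16 probe sets (log axis) on the arrays of undifferentiated, PMA 3 days and PMA 8 days cells; solid lines join the brightest probe set of a gene, dashed lines its other probe sets, and the dotted line is the floor of 149.8 units. For 7 of the 8 measured genes the PMA 3 days point is the highest, and for PPBP it is the PMA 8 days point.

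Among the CXCR2 ligands, CXCL8, the main neutrophil attractant of human monocytes, had signals of 1006, 6570 and 4491 units on the undifferentiated, PMA 3 days and PMA 8 days arrays. Its other probe set gave 183, 1440 and 903 units. Both probe sets were above the floor on every array and were ordered alike, lowest in undifferentiated cells and highest at PMA 3 days. Both carry a suffix that marks probes found in several sequences of the array design. The ratio at PMA 3 days over undifferentiated was 6.53-fold by the first and 7.85-fold by the second, and at PMA 8 days over undifferentiated 4.46-fold and 4.93-fold. At PMA 8 days over PMA 3 days the log2 ratios were -0.55 and -0.67, short of 2-fold in both. The spread between the probe sets was thus smaller than the difference of either PMA array from the undifferentiated one.

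The genes CXCL1, CXCL2 and CXCL3, called GRO alpha, beta and gamma, arose by duplication, and their coding sequences are so alike that probe sets can share signal, which was not tested. CXCL1 had 303, 1706 and 813 units in undifferentiated, PMA 3 days and PMA 8 days cells. That is 5.64-fold higher at PMA 3 days and 2.69-fold higher at PMA 8 days than in undifferentiated cells, and 2.10-fold lower at PMA 8 days than at PMA 3 days. The brightest probe set of CXCL2 had 271, 3105 and 1122 units in the same order. Its signal was 11.5-fold and 4.14-fold above undifferentiated cells at PMA 3 and 8 days, and 2.77-fold lower at PMA 8 days than at PMA 3 days. The other 2 probe sets of CXCL2 did not show this: one gave 23.0, 197 and 14.1 units, above the floor only at PMA 3 days, and the other 45.7, 43.8 and 104 units, below it on every array. The brightest carries the suffix that marks probes found in several sequences of the array design, and by the one that was above the floor CXCL2 was at least 1.31-fold up at PMA 3 days, which is no call. CXCL3 had 10.4, 1527 and 809 units. It was below the floor in undifferentiated cells and at least 10.2-fold higher at PMA 3 days and at least 5.40-fold higher at PMA 8 days. Its log2 ratio at PMA 8 days over PMA 3 days was -0.92, short of 2-fold.

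CXCL5, called ENA-78, another CXCR2 ligand, was below the floor on all arrays by all 3 probe sets, with 1.46 to 105 units, and it gave no ratio. The floor is a limit of this reading, so a low level cannot be told apart from none. CXCL5 was thus not measured. Its promoter holds the same 11 bases as those of CXCL1, CXCL2 and CXCL3.

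PPBP codes for pro-platelet basic protein, which is stored in platelet granules and gives the CXCR2 ligand NAP-2 when proteases trim it. Its 1 probe set, which carries a suffix for shared probes, had 4.49, 3249 and 5557 units in undifferentiated, PMA 3 days and PMA 8 days cells. It was far below the floor in undifferentiated cells and was the only measured member whose highest signal was at PMA 8 days. The ratio was at least 21.7-fold at PMA 3 days and at least 37.1-fold at PMA 8 days over undifferentiated cells. At PMA 8 days over PMA 3 days it was 1.71-fold up, a log2 ratio of 0.77 that lay above those of 96.4% of the measured genes. PF4, the other platelet chemokine and its neighbour on the chromosome, had 80.7, 409 and 283 units, which makes it at least 2.73-fold higher at PMA 3 days and no call at PMA 8 days (at least 1.89-fold up). Of 10 platelet and megakaryocyte markers 4, 4 and 5 were above the floor on the undifferentiated, PMA 3 days and PMA 8 days arrays. PF4 was the only one past 2-fold at PMA 3 days and 0 of them were past it at PMA 8 days, with summed signals of 1577, 1803 and 1684 units in undifferentiated, PMA 3 days and PMA 8 days cells. Among all measured genes 10.4% were higher and 10.7% lower by 2-fold at PMA 3 days, and 9.83% higher and 8.49% lower at PMA 8 days. PF4, GP1BA and TREML1 were above the floor on both PMA arrays, ITGA2B, SELP and GP6 on 1 of them, and GP9, GATA1, TUBB1 and CLEC1B on neither. TREML1, a receptor of platelet granules, had 238, 371 and 462 units and was, like PPBP, highest at PMA 8 days, at 1.56-fold and 1.94-fold over undifferentiated cells, which is no call.

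**Figure D3:**
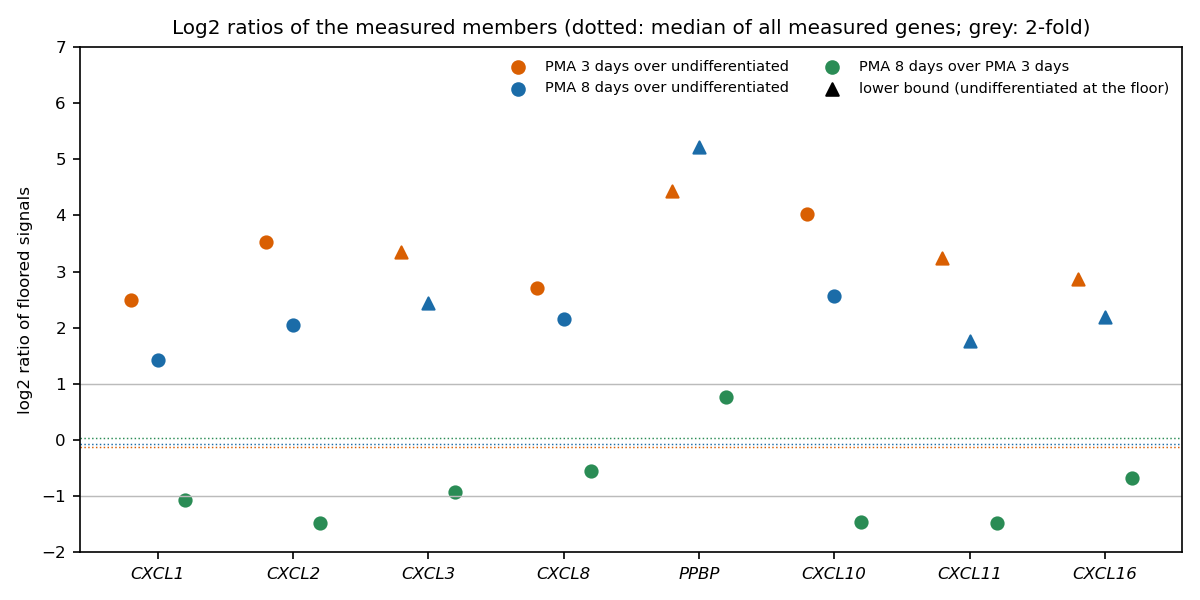
Log2 ratios of the 8 measured members in each comparison; triangles are lower bounds, dotted lines the medians of all measured genes and grey lines 2-fold. Every ratio over undifferentiated cells lies above 2-fold, and PPBP alone lies above 0 for PMA 8 days over PMA 3 days.

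Among the CXCR3 ligands, CXCL10 (IP-10) had 208, 3398 and 1234 units in undifferentiated, PMA 3 days and PMA 8 days cells. It was above the floor on all arrays and highest at PMA 3 days. It was 16.3-fold higher at PMA 3 days and 5.92-fold higher at PMA 8 days than in undifferentiated cells, and 2.75-fold lower at PMA 8 days than at PMA 3 days. CXCL11 (I-TAC) had 68.9, 1410 and 509 units by its brighter probe set and 3.49, 465 and 289 units by the other. Both were below the floor in undifferentiated cells and highest at PMA 3 days. The brighter gave at least 9.41-fold at PMA 3 days and at least 3.40-fold at PMA 8 days, and the other at least 3.10-fold and at least 1.93-fold. At PMA 8 days over PMA 3 days CXCL11 was 2.77-fold lower by the brighter and 1.61-fold down by the other. The call thus rests on 1 of its 2 probe sets, the one with a suffix for shared probes. CXCL9 (MIG) had 27.2, 145 and 132 units. Its PMA signals lay just under the floor of 149.8, and it was not measured.

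CXCL16, the ligand of CXCR6, had 57.8, 1098 and 684 units in undifferentiated, PMA 3 days and PMA 8 days cells. It was below the floor in undifferentiated cells and above it on both PMA arrays. It was at least 7.33-fold higher at PMA 3 days and at least 4.57-fold higher at PMA 8 days, and its log2 ratio at PMA 8 days over PMA 3 days was -0.68, short of 2-fold. Among all measured genes 10.4% were higher and 10.7% lower at PMA 3 days over undifferentiated cells, and 9.83% higher and 8.49% lower at PMA 8 days. Of 7 genes for the shedding of CXCL16, 2 were higher at both PMA times and 0 lower. These were RHBDF2 and RHBDF1, the iRhom partners of the sheddase ADAM17, at 3.68-fold and 2.48-fold at PMA 3 days over undifferentiated and 3.92-fold and 2.34-fold at PMA 8 days. ADAM10, a sheddase of CXCL16, had 16984, 16394 and 15242 units, level within a log2 ratio of -0.16.

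The members differed in how much of their PMA 3 days signal was present at PMA 8 days. By their brightest probe sets CXCL11, CXCL2 and CXCL10 had 36.1%, 36.1% and 36.3% of it, CXCL1 had 47.6% and CXCL3 53.0%. CXCL16 and CXCL8 had 62.3% and 68.4%, and PPBP had 171%. The other probe set of CXCL11 gave 62.1%, the level of CXCL16, so its place in this order rests on the probe set, and the other of CXCL8 gave 62.7%. The value of CXCL2 rests on its brightest probe set, since no other was above the floor on both PMA arrays. The gaps between CXCL1 and CXCL3, between CXCL3 and CXCL16 and between CXCL16 and CXCL8 are each smaller than the spread between probe sets of a gene. The order of these neighbours is thus not resolved. Of the 1383 genes that were higher at PMA 3 days than in undifferentiated cells, 65.5% were lower in signal at PMA 8 days than at PMA 3 days and 5.21% were lower by 2-fold, with a median log2 ratio of -0.16. Since these genes were picked by the PMA 3 days array, a lower ratio against that same array is partly built in. The chemokines were picked by gene symbol, with earlier results of these data known. How far this holds for them was not tested.

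**Figure D4:**
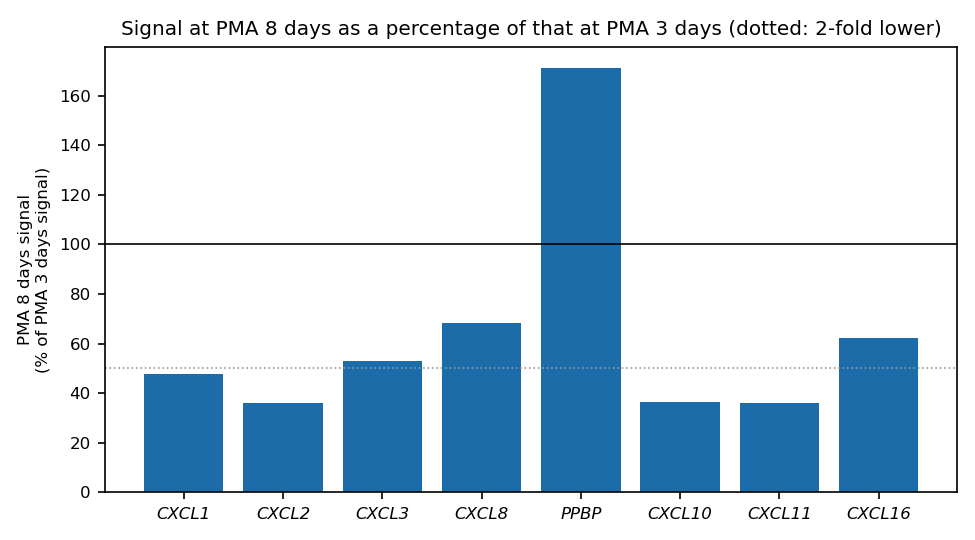
Signal at PMA 8 days as a percentage of the signal at PMA 3 days for the 8 measured members; the solid line is no difference and the dotted line 2-fold lower. CXCL1, CXCL2, CXCL10 and CXCL11 lie below the dotted line and PPBP at 171%.

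The receptors were looked at as well. Of 8 CXC receptor genes 3 were measured at PMA 3 days and 4 at PMA 8 days over undifferentiated cells. CXCR2, the receptor for the neutrophil-attracting members, had 3096, 344 and 593 units in undifferentiated, PMA 3 days and PMA 8 days cells, and was 8.99-fold lower at PMA 3 days and 5.22-fold lower at PMA 8 days. Of all measured genes 10.7% and 8.49% were lower by 2-fold in these comparisons. ACKR3, an atypical receptor that takes up CXCL11 and CXCL12 without G-protein signalling, had 328, 2110 and 1281 units, 6.44-fold higher at PMA 3 days and 3.91-fold higher at PMA 8 days. CXCR4, the receptor of CXCL12, had 18724, 10642 and 9987 units, log2 ratios of -0.82 and -0.91, short of 2-fold. CXCR3 was above the floor only at PMA 8 days, with 221 units against 31.1 at PMA 3 days and 101 in undifferentiated cells, which is no call. CXCR1, CXCR5, CXCR6 and ACKR1 were below the floor on all arrays. The receptor of the CXCR2 ligands was thus lower on the arrays on which CXCL1, CXCL2, CXCL3, CXCL8 and PPBP were higher.

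Of 7 other CXC ligand genes 5 were measured, 4 were higher at PMA 3 days and 2 at PMA 8 days over undifferentiated cells, and 0 were lower. In these comparisons 10.4% and 9.83% of all measured genes were higher by 2-fold, and 10.7% and 8.49% lower. CXCL6, a CXCR2 ligand in the same gene group, had 111, 1247 and 1285 units, at least 8.33-fold higher at PMA 3 days and at least 8.58-fold higher at PMA 8 days. It had nearly the same signal on both PMA arrays (log2 ratio 0.04). CXCL12, the ligand of CXCR4, had 84.5, 504 and 349 units, at least 3.36-fold and at least 2.33-fold higher. Genes that flank the chemokines on chromosome 4 without belonging to the family were measured in 6 of 11 cases, with 2 higher and 0 lower at both PMA times. These were SCARB2, a lysosomal membrane protein (4.12-fold at PMA 3 days and 3.56-fold at PMA 8 days), and PARM1 (24.0-fold and 20.4-fold). The nearest neighbours that were measured, MTHFD2L, SDAD1 and NUP54, had log2 ratios of 0.87, -0.06 and -0.54 at PMA 3 days over undifferentiated and did not pass 2-fold.

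**Figure D5:**
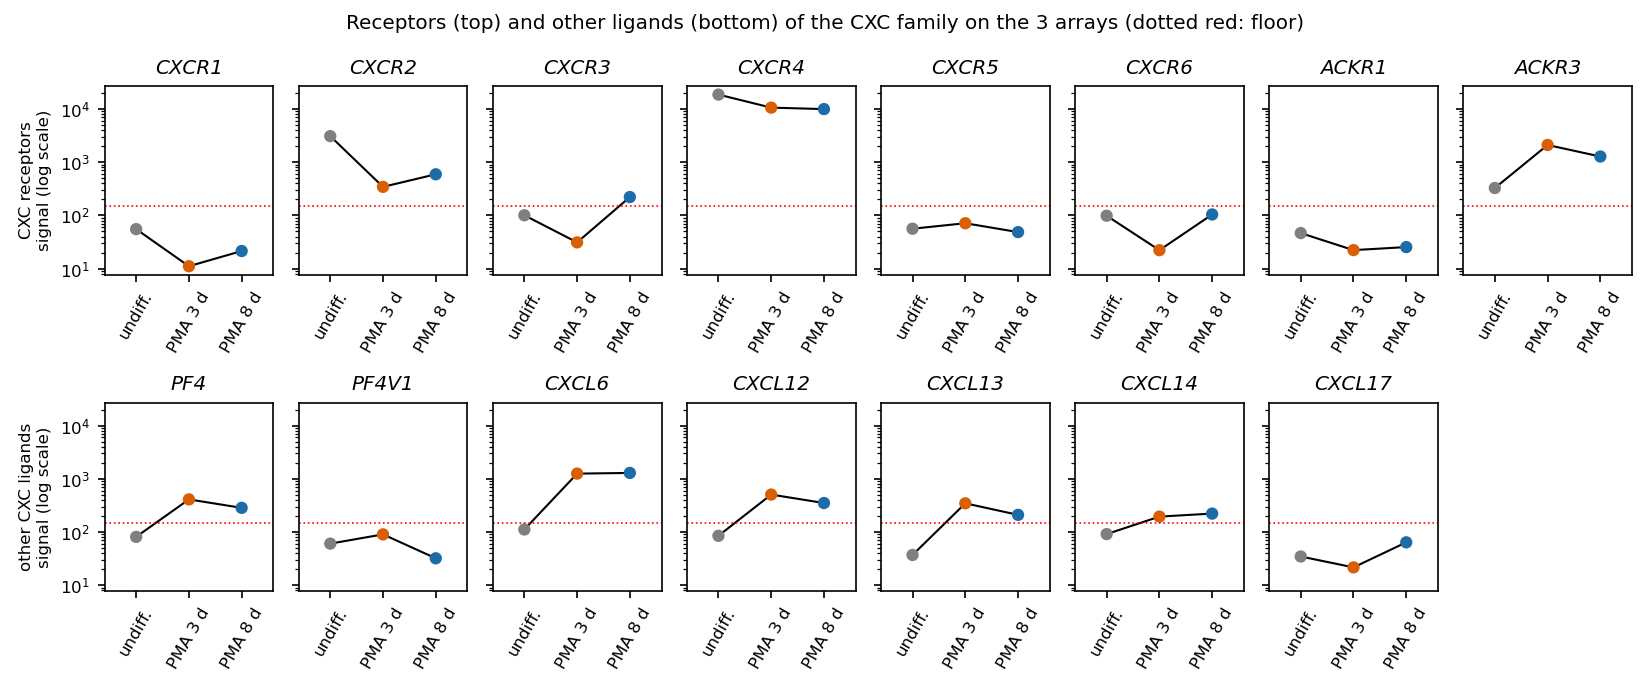
Signals (log axis) of 8 CXC receptor genes in the upper row and 7 other CXC ligand genes in the lower row on the undifferentiated, PMA 3 days and PMA 8 days arrays, each by its brightest probe set, with the floor dotted. CXCR2 is lower and ACKR3 and CXCL6 are higher on both PMA arrays, and 4 receptors stay below the floor.

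Regulators of chemokine transcription and mRNA decay were counted next. The shares of all measured genes for these counts were 10.4% higher and 10.7% lower at PMA 3 days over undifferentiated cells. At PMA 8 days they were 9.83% higher and 8.49% lower. Of 11 measured subunits and feedback inhibitors of NF-kB 0 passed 2-fold at PMA 3 days and 1 at PMA 8 days, with median log2 ratios of 0.68 and 0.30 over undifferentiated cells. The 1 gene was TNFAIP3 (A20), a deubiquitinase that NF-kB induces and that limits it, at 1.96-fold and 2.34-fold. Among 10 cytokines that induce chemokines 3 were measured at PMA 3 days and 4 at PMA 8 days over undifferentiated cells, with 1 higher and 0 lower at both. IL1B, which codes for interleukin-1 beta, had 889, 1977 and 3069 units in undifferentiated, PMA 3 days and PMA 8 days cells, 2.22-fold and 3.45-fold higher, and like PPBP it was highest at PMA 8 days. TNF had 417, 570 and 530 units and passed 2-fold in neither comparison, and IFNB1 and IFNG were below the floor on all arrays. Of the C/EBP and AP-1 factors, 3 of 11 were higher and 1 lower at PMA 3 days, and 2 of 12 higher and 2 lower at PMA 8 days. ATF3, a stress-induced factor, was 4.70-fold and 5.31-fold higher, and CEBPB, a factor of inflammatory genes, 2.75-fold and 2.42-fold higher. CEBPA, the factor of granulocyte and monocyte precursors, was 6.51-fold and 3.62-fold lower, and CEBPD was 2.23-fold lower at PMA 8 days. Of the genes for the decay of chemokine mRNA 1 of 8 was higher and 1 lower at both times, near the shares of all genes. ZFP36L1, which binds AU-rich elements, was 6.65-fold and 4.82-fold higher, and its relative ZFP36L2 3.21-fold and 3.84-fold lower.

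Interferon target genes were higher in 10 of 13 cases at PMA 3 days and in 8 of 13 at PMA 8 days over undifferentiated cells, with 0 lower and median log2 ratios of 2.15 and 1.59. In these comparisons 10.4% and 9.83% of all measured genes were higher by 2-fold, and 10.7% and 8.49% lower. Between the PMA arrays 2 of 13 targets were lower at PMA 8 days by 2-fold, beside 0.958% of all measured genes, and the median of the targets was -0.54. GBP1, a guanylate-binding protein, was at least 62.0-fold and at least 54.3-fold higher, with nearly the same signal at both PMA times. IFIT1, which binds foreign RNA, was 15.0-fold and 7.83-fold higher and 1.91-fold down at PMA 8 days over PMA 3 days. It was ordered like CXCL10. Of the 1383 genes higher at PMA 3 days, 65.5% had a lower signal of any size at PMA 8 days. Their median log2 ratio was -0.16, and 5.21% were lower by 2-fold. Of 14 interferon signalling genes 3 were higher and 2 lower at PMA 3 days, and 2 higher and 2 lower at PMA 8 days. At PMA 3 days the receptor chain IFNGR1 was 3.06-fold and IRF2 2.22-fold higher, and IRF8, a myeloid regulator, was 13.9-fold and IRF3 2.34-fold lower.

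Proteases that trim chemokines went both ways, with 9 of 13 higher and 3 lower at both PMA times. Across all measured genes 10.4% were higher and 10.7% lower at PMA 3 days, and 9.83% higher and 8.49% lower at PMA 8 days. MMP12, the macrophage elastase, which can inactivate CXCR2 ligands, was at least 59.5-fold and at least 69.5-fold higher, and MMP8 at least 46.4-fold and at least 52.1-fold higher. CTSG, cathepsin G, which converts the PPBP product to NAP-2, had 54870, 1274 and 1413 units in undifferentiated, PMA 3 days and PMA 8 days cells and was 43.1-fold and 38.8-fold lower. ELANE, the neutrophil elastase, was 206-fold and 161-fold lower, with PMA signals of 156 and 199 units near the floor. PPBP and CTSG thus stood high on different arrays.

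The genes most like each of CXCL8, CXCL10, CXCL16 and PPBP were sought among 3338 genes that differed by at least 2-fold between any of the arrays. The distance was that of log2 signals raised to the floor and centred on their own mean over the 3 arrays. For undifferentiated cells PPBP and CXCL16 entered at the floor, and so did PRL, STEAP1, PYGB and MMP1 among the genes found. Their distances thus depend on the floor: NT5E had 199 units in undifferentiated cells and PPBP 4.49. Distances over so few arrays are a description only. Nearest to CXCL8 were PRL, TBXAS1 and the CC chemokine gene CCL4, which had 193, 1267 and 832 units in undifferentiated, PMA 3 days and PMA 8 days cells, at distances of 0.029, 0.038 and 0.043. Nearest to CXCL10 were RNASE1, CD48 and CLEC4A at distances of 0.21, 0.29 and 0.29. Nearest to CXCL16 were NABP1, GSDME and PYGB at distances of 0.042, 0.071 and 0.086. Nearest to PPBP were NT5E, STEAP1 and MMP1 at distances of 0.10, 0.23 and 0.32. That they too were highest at PMA 8 days follows from being picked for likeness to PPBP. MMP1, the interstitial collagenase, had 60.8, 3996 and 7536 units.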

How the data were processed

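Total RNA of 3 THP-1 cultures (undifferentiated, PMA 3 days, PMA 8 days; 1 array each) was labelled with biotin from 200 ng. The intensity values were deposited by the authors on a linear scale and were made with MAS5, per the submitters' processing notes; a version is not given in the sources used here. From the values, each array had a mean of 1000 after 2% was left out at either end. Of 54675 probe sets 62 were controls, and the platform table gave 41091 of the rest 1 gene, 1801 several genes and 11721 no gene. By Entrez ID 41037 matched the RefSeq gene table of GRCh38.p14, with 0 symbols changed. That table also gave the order of genes on a chromosome, and sequences with their coordinates came from the RefSeq promoter table of the same build.

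Signals were floored at the 50th percentile of all values other than controls, log2 ratios were formed and 2-fold was called. No test was possible with 1 array per group. The genes named follow a written rule: all members and CXC receptors, the 2 largest and 2 smallest ratios past 2-fold per list, and the 3 nearest genes for each of CXCL8, CXCL10, CXCL16 and PPBP. CCL4 and MMP1 fall under it. Genes given only as values in a list (TNF, IFNB1, IFNG, ADAM10, PECAM1, MTHFD2L, SDAD1, NUP54, and the platelet markers other than PF4) were picked after their values were seen. The members and the 15 other lists were chosen with earlier results of these data known, and genes of a list missing from the table (13 in all) were not analysed here. The alternatives were other scalings, floors, probe set choices and thresholds. Ratios and calls were tested on simulated data. Python 3.11.15, numpy 2.4.6, pandas 2.3.3, matplotlib 3.10.9 and Biopython 1.88 were used. Promoters were aligned globally with scores of 1 for a match, -1 for a mismatch, -3 to open and -1 to extend a gap.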

Additional observations from a re-analysis of the deposited data

How the results depend on the processing

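Under 8 other settings (scaling between arrays, floor, probe set of a gene) the log2 ratios of the 8 measured members kept their direction in all 3 comparisons wherever the setting measured them, and 46 of 62 values for PMA 3 days over undifferentiated, 48 of 61 for PMA 8 days over undifferentiated and 50 of 62 for PMA 8 days over PMA 3 days moved by less than 1 SD of probe sets of a gene. The median log2 ratio of the members at PMA 3 days over undifferentiated was 2.63 with the floor at the 60th percentile, 3.92 with no floor and a pseudocount of 16, 2.86 by the median over probe sets and 2.68 without probe sets marked as shared, beside 3.29; the first 2 follow from lower bounds that shift with the floor. At PMA 8 days over PMA 3 days it was -0.70 with scaling to the poly-A controls, where all genes moved to a median of 0.31. Without the probe sets marked as shared, which leaves no probe set for PPBP and CXCL8, 5 of 6 members measured (PMA 3 days) and 4 of 5 (PMA 8 days) were higher than in undifferentiated cells, beside 10.2% and 9.51% of all genes, and 2 of 6 were lower at PMA 8 days than at PMA 3 days, beside 1.00% of all. With all probe sets back, at PMA 8 days over PMA 3 days 7 of 8 members were past 1.5-fold (6 lower and 1 higher, beside 4.76% and 7.18% of all genes), and 0 of 8 were past 3-fold, where 0.0460% of all genes were lower and 0.107% higher. CXCL9 became the ninth measured member with the floor at the 40th percentile and, in the comparisons with PMA 3 days, under quantile normalization, with log2 ratios between -0.14 and 0.62 and no call, so that 8 of 9 were then higher at PMA 3 days. With the floor at the 60th percentile CXCL11 was no longer higher at PMA 8 days over undifferentiated (log2 ratio of at least 0.96). The balance of all genes moved too: under poly-A scaling 7.76% were higher and 17.6% lower at PMA 3 days over undifferentiated, beside 10.4% and 10.7%, and 4.03% were higher and 0.322% lower at PMA 8 days over PMA 3 days, beside 1.37% and 0.958%. No paired analysis was possible because each group holds 1 array. How far signals below the floor are true was limited by the lack of detection calls in what was used here.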
